A study of Homo sapiens with 16 samples.

Results

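The peaks described here lie in, or within 5 kb of, 10 genes of NAD synthesis and use: NAMPT, NAPRT, NMNAT1, NMNAT2, NMNAT3, NADK, NNMT, SIRT1, SIRT3 and PARP1. The genes were chosen by name from what their products do, with earlier results of these data known. All 10 were found among 20037 protein-coding genes. Their windows held 43 of the 58586 peaks in 13 lists, and the BMAL1 peaks among them joined into 8 of 20968 merged regions, called sites. NAMPT had 13 peaks, NNMT 17, SIRT1 11, and NMNAT1 and PARP1 1 each. NAPRT, NMNAT2, NMNAT3, NADK and SIRT3 had none.

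The libraries came from U2OS-CHRONO, a line labelled U2OS-CHR, and from U2OS, the human osteosarcoma line it derives from by its name. BMAL1 was precipitated at 6 times in each line after 200 nM dexamethasone, with collection every 4 h at the labels 0, 4, 8, 12, 16 and 20 h, and 1 further U2OS-CHRONO library was precipitated with an antibody to Myc and carries no time or treatment label. Per the labels, collection began 4 h before the trough of a luciferase reporter driven by the BMAL1 promoter. The design text names the Myc target as Myc-CHRONO, and 3 input libraries were not analysed here. There was 1 library per line and time, so the times pair the lines and are no replicates. The sources used here do not state how CHRONO was introduced, what drives it or whether the line is 1 clone. The lists hold no expression, so the labelled cell type was not checked against markers.

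NAD is made in most human cells by salvage of nicotinamide: NAMPT converts nicotinamide to nicotinamide mononucleotide, and the NMNAT enzymes convert that to NAD. NAPRT starts a parallel route from nicotinic acid, NADK phosphorylates NAD to NADP, and NNMT methylates nicotinamide and so removes it from salvage. SIRT1 and SIRT3 are NAD-dependent deacylases of the nucleus and the mitochondrion, and PARP1 spends NAD on poly(ADP-ribose) after DNA damage. In mice, CLOCK and BMAL1 are known to drive Nampt through E-boxes, short sites of which CACGTG is the classic form, and SIRT1 is known to act on clock proteins. CHRONO is a repressor of CLOCK and BMAL1.

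The sequences of 3 promoters are shown because they separate the members most clearly: SIRT1, with 2 CACGTG under its peaks, NAMPT, with a peak in 11 of 12 BMAL1 libraries and no CACGTG in the window, and NADK, with CACGTG and no peak. They are RefSeq sequences of GRCh38.p14, the assembly of hg38, each the 250 bases before an annotated start, 5′ to 3′ on the strand of the gene. SIRT1 is at chr10:67884406-67884655 on the plus strand, NAMPT at chr7:106284984-106285233 on the minus strand, and the NADK window, the second of 3 listed starts, at chr1:1778817-1779066 on the minus strand. Capitals mark CACGTG in SIRT1 and NADK. In NAMPT they mark the only match to CACGNG, a looser form that includes CACGTG.
SIRT1: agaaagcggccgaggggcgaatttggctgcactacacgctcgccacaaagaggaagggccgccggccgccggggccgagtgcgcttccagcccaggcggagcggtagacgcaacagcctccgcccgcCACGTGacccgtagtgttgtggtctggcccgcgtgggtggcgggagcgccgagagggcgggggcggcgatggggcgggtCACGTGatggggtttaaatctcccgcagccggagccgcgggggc
NAMPT: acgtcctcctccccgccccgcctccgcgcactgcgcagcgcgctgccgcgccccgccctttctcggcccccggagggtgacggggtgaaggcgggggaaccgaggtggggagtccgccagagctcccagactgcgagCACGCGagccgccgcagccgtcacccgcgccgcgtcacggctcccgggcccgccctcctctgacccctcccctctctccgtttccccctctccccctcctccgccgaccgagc
NADK: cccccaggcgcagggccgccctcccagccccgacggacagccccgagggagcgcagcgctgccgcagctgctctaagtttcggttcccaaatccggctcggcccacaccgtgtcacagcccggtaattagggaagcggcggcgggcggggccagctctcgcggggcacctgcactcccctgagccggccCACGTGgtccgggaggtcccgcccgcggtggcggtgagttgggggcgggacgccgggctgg

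Of the 10 members, 8 had at least 1 window in the RefSeq promoter table, 12 windows in all. NAPRT and NNMT were not in it. CACGTG occurred in 1 SIRT1 and 1 NADK window. On either strand, CACGTG was present in 7.37% of 22199 windows of protein-coding genes and occurred 2 or more times, as at SIRT1, in 0.703%. CACGNG, counted on both strands, was present in 5 of the 12 member windows and in 31.1% of the 22199. CACGTT, counted with its complement AACGTG, was present in none of the 12 and in 4.67% of the 22199. A match is a run of letters and not a measured site.

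Between 2 and 4 of the 10 genes had a BMAL1 peak at each U2OS-CHRONO time, and between 0 and 4 at each U2OS time. At 0, 4, 8, 12, 16 and 20 h the numbers were 3, 4, 2, 3, 3 and 3 in U2OS-CHRONO, and 2, 4, 0, 2, 2 and 3 in U2OS. The means were 3.00 ± 0.63 in U2OS-CHRONO and 2.17 ± 1.33 in U2OS (SD, n = 6 times), a difference of 0.83 ± 0.75, with more genes in U2OS-CHRONO at 4 times and as many at 2. The U2OS-CHRONO list was the longer at each time (2429 to 9391 peaks, against 337 to 6012 in U2OS), and over all protein-coding genes 7.96% to 24.7% had a peak at a U2OS-CHRONO time and 1.30% to 16.2% at a U2OS time. Read depth is unknown, so a longer list and more binding cannot be told apart. At equal list sizes within a time the difference was 0.33 ± 0.82. With every BMAL1 list reduced to its 337 highest peaks, the length of the shortest, it was -0.17 ± 0.75, with few peaks left.

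**Figure D1:**
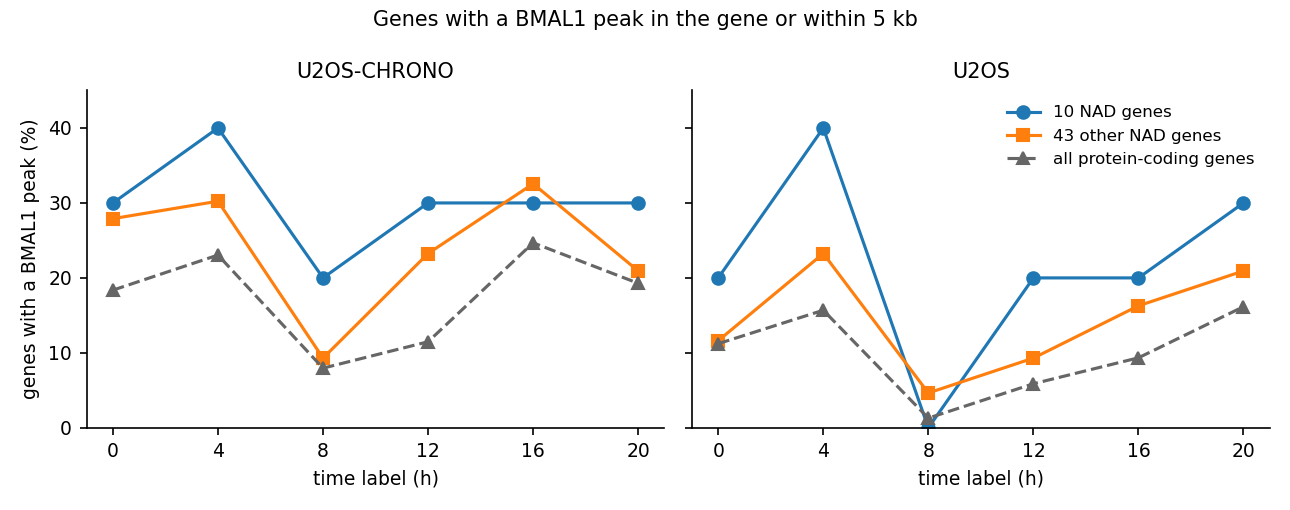
Share of genes (%) with a BMAL1 peak in the gene or within 5 kb against the time label (h), in U2OS-CHRONO at the left and U2OS at the right, with 1 library per point. The 10 NAD genes (circles) lie above all protein-coding genes (dashed, triangles) at each time except 8 h in U2OS, where 0 of 10 had a peak, and 43 other genes of NAD metabolism (squares) are shown beside them.

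Over all times, 4 of 10 members had a BMAL1 peak at 1 or more U2OS-CHRONO times, against 36.1% of all protein-coding genes, and 4 of 10 at 1 or more U2OS times, against 26% of all genes. The Myc library had a peak at 2 of 10, against 9.8% of all genes. The members' median length was 42497 bp and that of all genes 24115 bp. A longer gene gives a wider window, and the part of length in these shares was not tested.

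**Figure D2:**
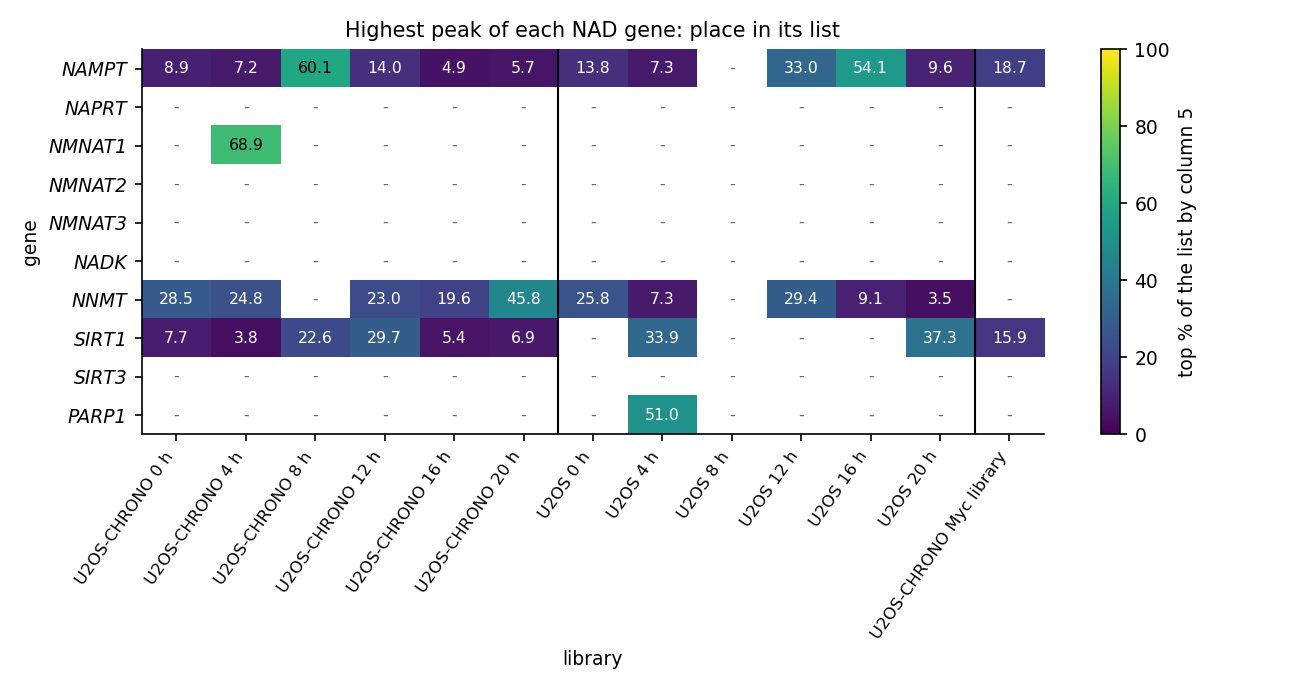
Each cell gives the place of the highest peak of a gene (rows) in the list of a library (columns), as the top percentage of the peaks of that list by column 5, and a dash marks no peak. NAMPT, SIRT1 and NNMT were marked in 8 or more of the 12 BMAL1 libraries, NMNAT1 and PARP1 in 1 each, and 5 genes in none.

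NAMPT, the rate-limiting enzyme of nicotinamide salvage, carried a single BMAL1 site, present at 6 of 6 U2OS-CHRONO times and at 5 of 6 U2OS times, with 8 h in U2OS as the exception. Of all protein-coding genes, 2.43% had a peak in 11 or more BMAL1 libraries. In U2OS-CHRONO the highest NAMPT peak ranked 497 of 5612 at 0 h, 597 of 8240 at 4 h, 1461 of 2429 at 8 h, 547 of 3919 at 12 h, 463 of 9391 at 16 h and 391 of 6873 at 20 h. Ranks are within a list and by column 5, a value per peak given by the authors. In U2OS it ranked 468 of 3397 at 0 h, 386 of 5287 at 4 h, 597 of 1808 at 12 h, 1512 of 2794 at 16 h and 575 of 6012 at 20 h. The peak was thus in the top 4.93% to 14.0% of its list at every U2OS-CHRONO time other than 8 h, where it was at 60.1%. In U2OS it was in the top 7.30% to 13.8% at 0, 4 and 20 h and at 33.0% and 54.1% at 12 and 16 h. Lists of unequal length give ranks that cannot be read as a change in binding.

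The stretch shared by the highest NAMPT peak of all 11 BMAL1 libraries and by the Myc peak was 147 bp long, at chr7:106285233-106285379 (hg38). It lay 250 to 396 bp before the RefSeq start, so the printed window meets it at 1 base, and the sequence of the stretch itself was not read here. The NAMPT entry of the gene table runs past this start to 106285888, so by that entry the stretch is inside the gene. The start of NAMPT-AS1, an antisense RNA gene, lies under the same peaks, so the site cannot be given to NAMPT or NAMPT-AS1. No other protein-coding gene had an end within 5 kb. Single peaks were 155 to 1137 bp wide, with the widest at 16 h in U2OS-CHRONO and the narrowest in the Myc library. The CACGCG capitalised in the NAMPT sequence, 113 bp before the start, was covered by a peak at 4 U2OS-CHRONO and 2 U2OS times and by none in the Myc library. At 4 h in U2OS-CHRONO it was covered by a weaker second peak alone, ranked 6579 of 8240, which also covered the start itself. The highest peaks at 16 h in U2OS-CHRONO and at 4 h in U2OS covered the start as well.

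**Figure D3:**
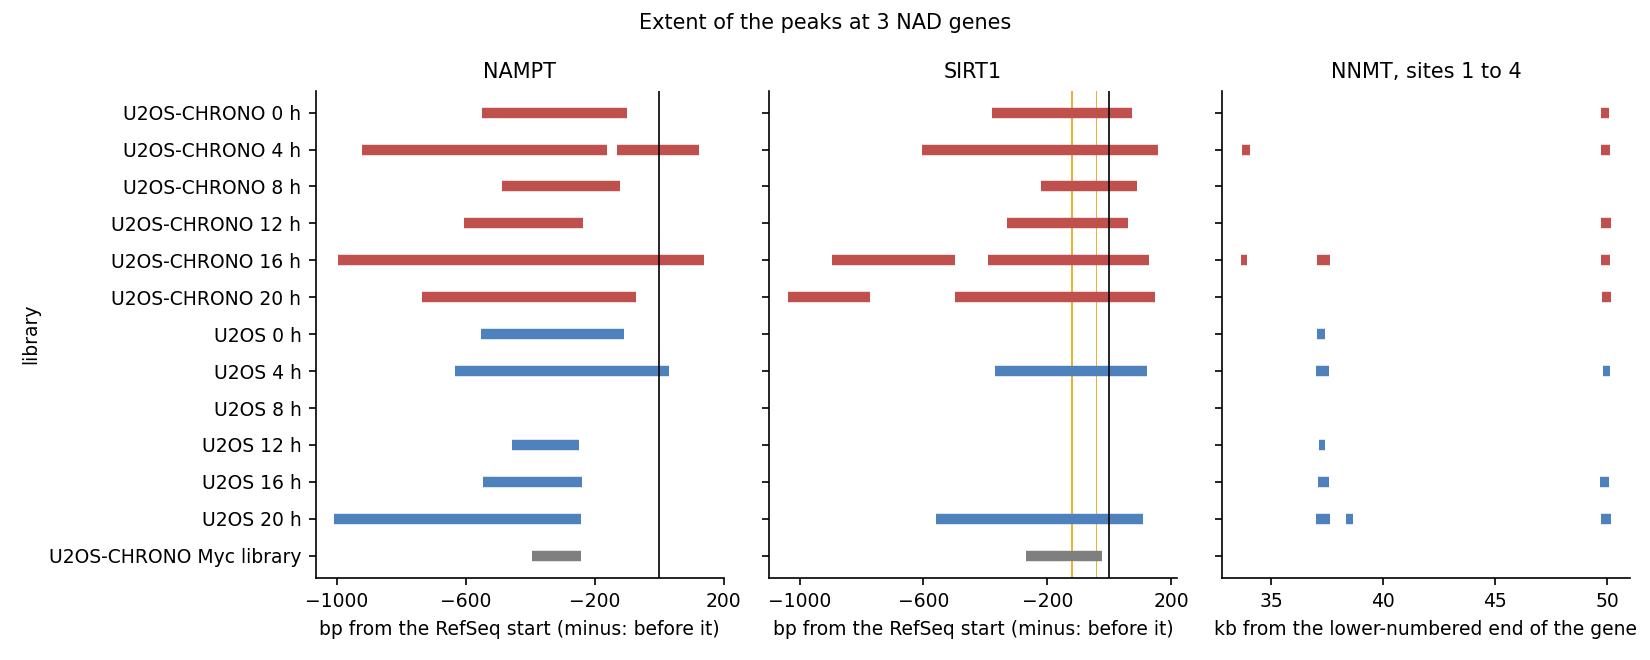
Extent of every peak at NAMPT and SIRT1, in bp from the RefSeq start (vertical line), and at NNMT, in kb from the lower-numbered end of the gene, with 1 row per library, U2OS-CHRONO in red, U2OS in blue and Myc in grey. The highest NAMPT peak of each library with one covers a stretch 250 to 396 bp before the start, the highest SIRT1 peak of each covers both CACGTG matches (yellow lines), and the NNMT peaks fall into 4 separate sites.

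SIRT1, a nuclear NAD-dependent deacetylase, had a promoter peak at all 6 U2OS-CHRONO times and at 2 of 6 U2OS times, 4 and 20 h. In U2OS-CHRONO the highest SIRT1 peak ranked 431 of 5612 at 0 h, 310 of 8240 at 4 h, 548 of 2429 at 8 h, 1162 of 3919 at 12 h, 507 of 9391 at 16 h and 471 of 6873 at 20 h. In U2OS it ranked 1791 of 5287 at 4 h and 2245 of 6012 at 20 h. Its place was the top 3.76% to 29.7% of the list in U2OS-CHRONO and 33.9% and 37.3% in U2OS, so both U2OS places were below all 6 of U2OS-CHRONO, in lists of other lengths.

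The difference of 4 times put SIRT1 among the 3.07% of protein-coding genes whose U2OS-CHRONO count exceeded the U2OS count by 4 or more times. It was the only such member, and 0 of 10 had the opposite, against 0.0948% of genes. The two-sided exact paired permutation test over the 6 times gave p = 0.125 for SIRT1, the smallest that 4 differing times allow, and an adjusted p of 1 over all 20037 genes. Of those genes, 0 passed after adjustment and 34 had an unadjusted p under 0.05, by the exact paired test. This test cannot give a p under 0.031, so a gene could pass after adjustment only if most genes had that p. Its adjusted values are thus uninformative. With the times unpaired, Fisher's exact test gave p = 0.061 for SIRT1 and 179 genes under 0.05, again with 0 after adjustment. At equal list sizes within a time the difference was 3 times, since the 8 h lists were then both 337 peaks long and the U2OS-CHRONO peak ranked below that. With every BMAL1 list at 337 peaks it was 1. It was 3 without 0, 8, 12 or 16 h.

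The highest SIRT1 peaks of the 8 BMAL1 libraries and the Myc peak shared 198 bp at chr10:67884436-67884633, from 220 to 23 bp before the RefSeq start. Both CACGTG matches of the printed sequence are in this stretch, at 67884533 to 67884538 and at 67884612 to 67884617, that is 123 and 44 bp before the start. Each was covered by a peak at 6 U2OS-CHRONO times, at 2 U2OS times and in the Myc library. At 16 and 20 h in U2OS-CHRONO, further peaks lay upstream, at 67883762 to 67884159 and at 67883617 to 67883883, ranked 5585 of 9391 and 6868 of 6873. No other protein-coding gene had an end within 5 kb of the site.

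**Figure D4:**
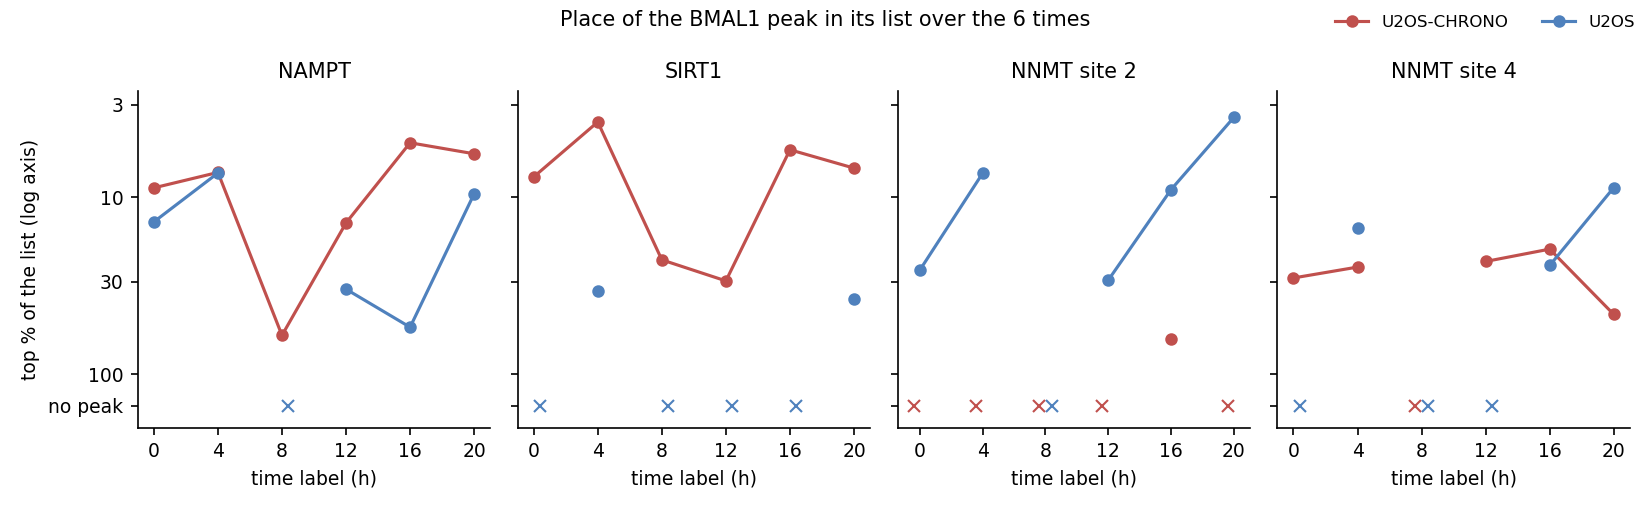
Place of the highest BMAL1 peak in its list (top %, log axis, higher is a better place) against the time label (h) at NAMPT, SIRT1 and the recurrent NNMT sites 2 and 4, with U2OS-CHRONO in red, U2OS in blue and crosses for no peak. SIRT1 was called at 6 U2OS-CHRONO and 2 U2OS times and NNMT site 2 at 1 and 5, while NAMPT was called at 6 and 5.

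NNMT, the methyltransferase that diverts nicotinamide from salvage, had a BMAL1 peak at the same 5 times in U2OS-CHRONO and in U2OS, all but 8 h. The equal count covered 4 sites inside the gene (chr11:114257806-114313536) that shared some of their times and differed in others. None had an end of another protein-coding gene within 5 kb, and none had a Myc peak. No promoter window was available for NNMT, so the distance of these sites from an annotated start was not measured.

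NNMT site 2, at chr11:114294805-114295411, had a peak at 1 U2OS-CHRONO time and at 5 U2OS times. In U2OS-CHRONO it was called at 16 h alone, with rank 5901 of 9391. In U2OS it ranked 875 of 3397 at 0 h, 387 of 5287 at 4 h, 531 of 1808 at 12 h, 253 of 2794 at 16 h and 213 of 6012 at 20 h. The 20 h peak, in the top 3.54% of its list, was the best placed of any member in U2OS. The site was missing from longer lists in U2OS-CHRONO at 0, 4, 12 and 20 h. A difference of 4 or more additional U2OS times was found in 0.291% of all merged regions. The site was singled out after its values were seen, and without 0, 4, 12 or 20 h the difference was 3 times. At equal list sizes within a time it was 5 times. With every BMAL1 list at 337 peaks it was 2, below the 4 used as the call.

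NNMT site 4, at chr11:114307507-114307997, had a peak at 5 U2OS-CHRONO times and at 3 U2OS times. In U2OS-CHRONO it ranked 1602 of 5612 at 0 h, 2042 of 8240 at 4 h, 903 of 3919 at 12 h, 1843 of 9391 at 16 h and 3150 of 6873 at 20 h. In U2OS it ranked 791 of 5287 at 4 h, 678 of 2794 at 16 h and 531 of 6012 at 20 h. Its direction, 2 additional times in U2OS-CHRONO, was thus opposite to that of site 2, and the difference between the sites was not tested. Site 1, at 114291434 to 114291850, was called at 4 and 16 h in U2OS-CHRONO, at the top 85.4% and 75.6% of its lists. Site 3, at 114296123 to 114296473, was called at 20 h in U2OS alone.

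Among the 8 sites, 5 had more U2OS-CHRONO times and 3 more U2OS times, a split that was not counted over all merged regions. The SIRT1 site was the only member site among the 5.06% of merged regions with 4 or more additional U2OS-CHRONO times. Sites with 1 library each were NNMT site 3 and those of NMNAT1 and PARP1. NMNAT1, which makes NAD in the nucleus, had a peak at 4 h in U2OS-CHRONO, at chr1:9943093-9943518, ranked 5677 of 8240. It lies over the start of NMNAT1 and that of its neighbour LZIC, and cannot be given to either. PARP1 had a peak at 4 h in U2OS, at chr1:226407949-226408263, ranked 2695 of 5287 and over the gene start. Both peaks were in long lists and neither recurred.

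Of the 5 members without a peak, NMNAT2, the cytosolic enzyme known from neurons, had the nearest peak of any list 13.3 kb away, at 4 h in U2OS-CHRONO. The distance was 94.6 kb for NMNAT3, 106 kb for NAPRT, 125 kb for SIRT3 and 129 kb for NADK. NADK thus had no peak near it although its window holds the CACGTG printed above, 61 bp before the start. Windows of 10 kb held the same 43 peaks, and the genes without flanks held 40.

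The Myc library had a peak at 2 of the 8 sites, SIRT1 and NAMPT, which are also the sites called at all 6 U2OS-CHRONO times. How many of all merged regions have a Myc peak, or are called at all 6 U2OS-CHRONO times, was not counted. Whether the 2 go together at these genes more than elsewhere is therefore unknown. The SIRT1 peak, at chr10:67884388-67884633, ranked 395 of 2487, and the NAMPT peak, at chr7:106285225-106285379, ranked 464 of 2487. Both had a column 5 value under 100 (85.1 and 79.2), so with a minimum of 100 neither remained. The sites of NNMT, NMNAT1 and PARP1 had no Myc peak. The Myc list held 2487 peaks, and a weaker site can be missed at that length.

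The presence of NAMPT peaks over the 12 BMAL1 libraries was shared exactly by 309 other protein-coding genes. By the mean absolute difference in percentile of the highest peak, the closest outside the lists of NAD genes were TRABD2B (6.14 points), KMT2C, a histone methyltransferase (6.42 points), and CDK6, a cell cycle kinase (6.49 points). The 12 libraries share 2 lines and list length, so the likeness is a description.

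Of 43 other genes of NAD metabolism, 19 had a BMAL1 peak in U2OS-CHRONO, against 36.1% of all protein-coding genes, 14 had one in U2OS, against 26%, and 6 had a Myc peak, against 9.8%. More U2OS-CHRONO times were found for 16 and more U2OS times for 3. The U2OS-CHRONO list was the longer at each time, and this split was not counted over all genes. NADK2, the mitochondrial NAD kinase, had a peak at 5 U2OS-CHRONO times and 1 U2OS time, as did PARP16, an ADP-ribosyltransferase of the endoplasmic reticulum. These were the 2 of 43 with a difference of 4 or more times in that direction, against 3.07% of all genes. The U2OS peak of PARP16 lay at another site than its U2OS-CHRONO peaks. NT5E, the ectonucleotidase CD73, had a peak at 0 U2OS-CHRONO times and 4 U2OS times, 0, 4, 16 and 20 h, and was the 1 of 43 in the other, against 0.0948%. For each of the 3, the exact paired permutation p was 0.125 and the adjusted p 1. A CACGTG in a NADK2 promoter window, 136 bp before the start, was covered by a peak at 4 U2OS-CHRONO times and 0 U2OS times. The Myc peak of that site did not cover it, and RANBP3L has an end within 5 kb.

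Among the other sirtuins, SIRT2 had a peak at 5 U2OS-CHRONO and 2 U2OS times, SIRT4 at 5 and 3, SIRT5 at 3 and 1, SIRT7 at 0 and 1, and SIRT6 at none. The recurrent SIRT2 site is also within 5 kb of an end of NFKBIB, and that of SIRT4 of an end of PLA2G1B. NNT, the mitochondrial transhydrogenase, had a peak at 4 U2OS-CHRONO times and, at another site, at 1 U2OS time. KYNU, of tryptophan breakdown towards NAD, had one at 4 and 3 times, and AFMID of the same pathway at 2 and 2. Counts per gene can pool separate sites, as for AFMID and SIRT5. The AFMID sites are also within 5 kb of an end of TK1, and a SIRT5 site of an end of NOL7. PARP6 had one at 3 and 0 times. The Myc peaks of KYNU and PARP6 did not overlap their BMAL1 sites. SLC25A51, the mitochondrial NAD carrier, had a Myc peak and no BMAL1 peak. Genes with none in any list numbered 20, among them NADSYN1 and NMRK1 of NAD synthesis and CD38 and BST1, which break it down.

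**Figure D5:**
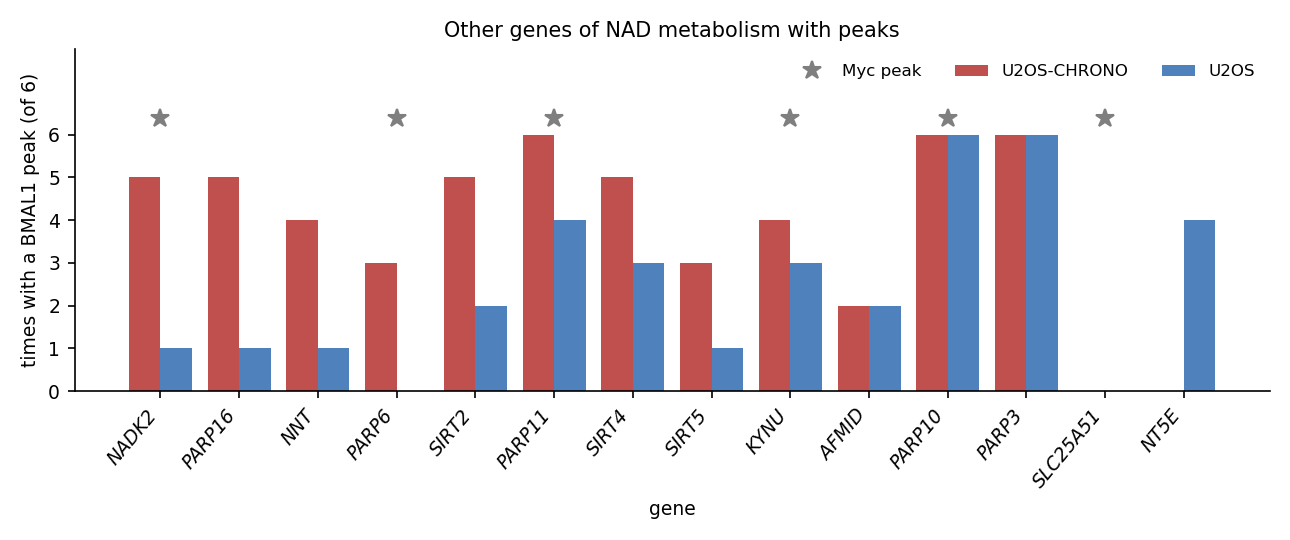
Number of times (of 6) with a BMAL1 peak in the gene or within 5 kb for the 14 other genes of NAD metabolism with a peak in 4 or more BMAL1 libraries or a Myc peak, U2OS-CHRONO in red and U2OS in blue, with stars for a Myc peak. NADK2 and PARP16 have 5 times against 1 at the left, and NT5E has 0 against 4 at the right. A star can mark a Myc peak away from the BMAL1 site, as at KYNU and PARP6.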

How the data were processed

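The data were 13 peak lists in BED form, 1 per library. Per the submitters' processing notes, MACS 1.4.2, bedtools and HOMER 4.10.3 were used with the build hg38, with no roles stated; the aligner, the control and the depth were not given in the sources used here. Column 5 is the authors' score per peak, as deposited and with no stated definition. It ranked or filtered peaks within a list only.

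Genes and promoter sequences came from RefSeq tables of GRCh38.p14 (20037 protein-coding genes on chromosomes 1 to 22, X and Y). A gene had a peak when a peak overlapped it or 5 kb to each side by 1 bp. Sites are overlapping peaks of the 12 BMAL1 lists joined. Lines were compared per gene by a two-sided exact sign-flip permutation test over 6 times, paired by the time labels, with Benjamini-Hochberg adjustment over all genes. The smallest p it can give is 0.031, so a difference of 4 or more times was used as the call. The test was checked on simulated data. The members and lists, and the promoter motifs, were chosen with earlier results of these data known. The text names all members, other NAD genes with a peak in 4 or more BMAL1 libraries or in the Myc library, further ones chosen after their values were seen, and the 3 genes most like NAMPT. Alternatives were other windows, a column 5 minimum of 100, equal list sizes, no pairing, 50% overlap and each time left out. Python 3.11.15, NumPy 2.4.6, SciPy 1.17.1, pandas 2.3.3 and matplotlib 3.10.9 were used.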

Additional observations from a re-analysis of the deposited data

Results flagged for a closer look

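Of 8 sets of 6 libraries looked at for 1 value far from the rest, 1 stood apart. Chance gives about 1 in 20 for each set, so 1 among 8 is not unusual, and some sets came from the same peaks. The set that stood apart was the place of the NAMPT peak in the U2OS-CHRONO lists. The 8 h library had it at the top 60.1%, against 4.93% to 14.0% at the other 5 times, a gap of 0.837 of the whole range. The 8 h list was the shortest of that line, with 2429 peaks, and the part of list length was not tested.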

How the results depend on the processing

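Windows of 10 kb, and the centre of the peak in place of 1 bp of overlap, gave the same 43 peaks and the same numbers of members with a peak and of members called. The gene without flanks left 1 member with a Myc peak. With column 5 of at least 100 there were 24 peaks, 4 sites, 2 members with a peak in U2OS, 0 with a Myc peak and 0 shared sites. At equal list sizes within a time, 0 members had 4 or more additional U2OS-CHRONO times, and the mean difference between the lines was 0.33 genes per time. With each BMAL1 list at its 337 highest peaks and the Myc list left whole, there were 5 peaks, of which 2 were Myc peaks. These made 2 sites and 1 shared site. In that setting 1 member had a BMAL1 peak in U2OS-CHRONO, 1 had one in U2OS and 0 members were called. The mean difference between the lines turned to -0.17 genes per time. Shorter lists hold fewer peaks by construction. With each time left out, 0 to 1 members were called, with 4 of 5 times then needed. An overlap of 50% of the shorter peak kept both shared sites. Without the pairing by time (no replicate block), 0 members passed an adjusted p of 0.05, as in the paired test. In either test 0 had an unadjusted p under 0.05. The exact paired test cannot give a p under 0.031, so after adjustment the match of these zeros says little. Depth is unknown and limits all absences.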

Other observations

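PARP10, a mono-ADP-ribosyltransferase on chromosome 8, and PARP3, which acts in DNA repair, had a peak in all 12 BMAL1 libraries. The recurrent PARP10 site, at 144014410 to 144015164, was in the top 2.27% to 5.72% of the U2OS-CHRONO lists and 2.08% to 21.7% of the U2OS lists, with a Myc peak ranked 464 of 2487, and is within 5 kb of an end of PARP10 and of SPATC1. A second PARP10 site, inside the gene at 144003423 to 144004224, had a peak at 1 U2OS-CHRONO time and 5 U2OS times, the counts of NNMT site 2. The PARP3 site, at 51941629 to 51942436 on chromosome 3, is also within 5 kb of an end of RRP9 and cannot be given to either gene. It had no Myc peak, and its place was the top 19.1% to 78.2% in U2OS-CHRONO and 4.80% to 65.6% in U2OS. PARP11 had a peak at 6 U2OS-CHRONO and 4 U2OS times, pooled over separate sites, and a Myc peak. These genes and sites were picked after their values were seen, and no test was run on them beyond the comparison of all genes.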
